A study of Mus musculus with 4 samples.

Results

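The spliced regions of collagen, matrix, protease and integrin genes were examined in RNA-Seq lists from mouse embryonic fibroblasts (MEFs). Members were chosen by gene symbol alone: *Col* followed by a digit, or a symbol starting with one of the names for laminins, nidogens, fibulins, fibrillins, latent TGF-beta binding proteins, lysyl oxidases, lysyl and prolyl hydroxylases, ADAM and matrix metalloproteases, TIMPs, serpins, integrins, thrombospondins, tenascin-C, periostin, *Cyr61*, *Ctgf* and the IGF binding proteins, with *Thbs1* and *Adamts9* left out. The rule found 90 of the 2588 listed regions, in 45 genes. Of these, 3 are among the 55 regions of the Tg list and 87 among the 2533 regions of the Dtt list. All 90 were placed on the mm9 assembly by their listed boundaries, and the gene and its strand were found by symbol.

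The lists come from *Ire1*α heterozygous (Het) C57BL/6 MEFs, 1 library per experiment. In the Tg experiment the Het cells received 500 nM thapsigargin for 4 hours, an inhibitor of the ER calcium pump, and in the Dtt experiment 1 mM dithiothreitol for 4 hours, which reduces disulfide bonds. Each experiment also has 1 library of *Ire1*α knockout (KO) cells, in which the labels say no drug was given and the study's methods say that it was, and the knockout allele differed between the experiments. A region was listed only if split reads supported it in the Het sample and it had no match in the KO sample. The KO columns hold no number, so no KO level can be given for any member, and with 1 library per group no difference between genotypes or experiments has a replicate check. The Tg and Dtt libraries also differ in read length and in the total of listed reads, 135 in Tg and 6436 in Dtt, so the lists are set side by side here and not compared by a test.

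Collagens, laminins and elastic fibre proteins are made in the ER, where prolyl and lysyl hydroxylases modify collagen chains and the chaperone Serpinh1 (HSP47) binds the folded helix before secretion. Outside the cell, lysyl oxidases cross-link the fibres, metalloproteases and their inhibitors govern turnover, and integrins tie the cell to the matrix. Fibroblasts are the main producers of this matrix. Many matrix proteins are built from repeated modules, such as the Gly-X-Y triplets of collagen, the EGF-like domains of the latent TGF-beta binders and the fibronectin type III repeats of tenascin-C. Of 10 fibroblast markers, 6 have a listed region, of which *Col1a1*, *Col1a2* and *Postn* are members and *Fn1*, *Thy1* and *Vim* are not, and *Col3a1*, *S100a4*, *Pdgfrb* and *Fap* have none. The epithelial markers *Epcam*, *Cdh1*, *Krt8* and *Krt18*, the immune markers *Ptprc* and *Cd68* and the endothelial markers *Pecam1* and *Cdh5* also have none. A gene may be expressed and have no listed region, so these counts do not settle the cell type. The lists hold no expression level, so a region with more reads is not a gene with more splicing.

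An intron that is removed by the spliceosome nearly always starts with GT at the donor site and ends with AG at the acceptor site. The sequences of 5 junctions that skip whole coding exons are shown first, because they join annotated sites and leave out coding sequence. Each line is on the strand of the gene, 5′ to 3′, with exon bases before the capitals of a donor and after the capitals of an acceptor, and the capitals mark the first or last bases of the removed stretch.
*Tnc* donor before the skipped exon 12, chr4:63660933-63660958 (minus): aggtcttgacagGTattttagaccgg
*Tnc* acceptor after the skipped exon 12, chr4:63654322-63654347 (minus): ctctcatctttcAGccagagaacctg
*Tnc* donor before the skipped exons 13 and 14, chr4:63656561-63656586 (minus): acgtctccacagGTatcatctccact
*Tnc* acceptor after the skipped exons 13 and 14, chr4:63643946-63643971 (minus): ttctctccctctAGaagctgaaccgg
*Col1a1* donor before the skipped exon 32, chr11:94806901-94806926 (plus): gatggtgccaagGTgagggcatcgtg
*Col1a1* acceptor after the skipped exon 32, chr11:94807575-94807600 (plus): tttcctgtttttAGggtgatgctggt
*Ltbp3* donor before the skipped exons 18 to 20, chr19:5752130-5752155 (plus): tcagttgcatagGTgagctcctgcat
*Ltbp3* acceptor after the skipped exons 18 to 20, chr19:5755918-5755943 (plus): gtccccttctccAGaggtggagcagc
*Itga5* donor before the skipped exon 12, chr15:103184464-103184489 (minus): caatggagatggGTgagtgatgggaa
*Itga5* acceptor after the skipped exon 12, chr15:103183754-103183779 (minus): gttgtgtcttgcAGatgtcgccattg

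A second set shows ends that lie a few bases from an annotated site, because here both the annotated and the listed GT or AG can be read in the same stretch.
*Igfbp2* annotated donor, 7 reads, chr1:72872037-72872062 (plus): tggcgttgggagGTgaggagaagggt
*Igfbp2* donor 12 bases downstream, 5 reads, chr1:72872049-72872074 (plus): gtgaggagaaggGTaaggatgcacgt
*Igfbp2* shared annotated acceptor, chr1:72895646-72895671 (plus): ctctttctctgcAGacagtgatgacg
*Igfbp2* acceptor 4 bases downstream, 2 reads, chr1:72895650-72895675 (plus): ttctctgcagacAGtgatgacgacca
*Fbln2* acceptor 4 bases downstream, 4 reads, chr6:91221506-91221531 (plus): tccctcacaggaAGtgcgagcgcacc
*Adamts6* acceptor 5 bases upstream, 5 reads, chr13:105103697-105103722 (plus): cttattttctggAGgtcaggttgcca
*Adam17* acceptor 5 bases upstream, 2 reads, chr12:21348832-21348857 (minus): tgttctctcttaAGtatagattcgaa
*Timp2* donor 4 bases upstream, 2 reads, chr11:118216265-118216290 (minus): tgcaatgcagacGTaggtaagcggct
*Igfbp4* donor 11 bases downstream, Tg list, 2 reads, chr11:98908717-98908742 (plus): agtgagcagcagGTcacactgcaggg

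The last set shows regions of a few bp, with the removed bases in capitals at the first placement within the listed boundaries. It includes the best supported members, and most of its stretches hold a repeat. In *Igfbp4* and *Col1a2* the listed boundaries lay 31 and 10 bases farther apart than any single gap explains. For these, placements differ in the joined sequence, so the bases in capitals are not known to be those removed.
*Col8a1*, 2 bp, 15 reads, chr16:57624919-57624946 (minus): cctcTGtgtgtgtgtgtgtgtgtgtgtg
*Igfbp4*, 2 bp, 10 reads, chr11:98913016-98913043 (plus): ccttTGtgtgtgtgtgcacacgcgtgca
*Cyr61*, 2 bp, Tg list, 3 reads, chr3:145310268-145310295 (minus): agacCCccccccccctttcttggttcta
*Col1a2*, 2 bp, 3 reads, chr6:4490891-4490918 (plus): gttaTTtttgtgggtttttttttaacac
*Ltbp1*, 2 bp, 2 reads, chr17:75578267-75578294 (plus): ttccTTtttttttttttttttttttttc
*P4ha3*, 2 bp, 2 reads, chr7:107467895-107467922 (plus): gcatACacacacacacacacacacccat
*Loxl1*, 5 bp, 2 reads, chr9:58160860-58160887 (minus): ccgcCCCTGccctgccctgaccccttgg
*Plod2*, 2 bp, 2 reads, chr9:92502019-92502044 (plus): ctgttaaaaatgGAacacgatacatt

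In the Dtt list the members fell into short regions of 2 to 5 bp and long regions of 50 bp and over. Of the 87 regions, 35 were under 10 bp, 52 were of 50 bp and over, and 0 lay in between, where 37 of 2533 regions of the whole list (1.46%) did. The short regions carried 96 supporting reads and the long ones 139. Collagens had the most regions, 20 in 8 genes, followed by 15 in 6 genes of matricellular proteins and growth factor binders, 14 in 7 collagen modifying enzymes, 11 in 6 protease inhibitors, 10 in 6 proteases, 8 in 4 elastic fibre and latent TGF-beta genes, 5 in 4 integrins and 4 in 4 basement membrane genes. Groups were set by symbol, so *Serpinh1*, a collagen chaperone gene, counts among the protease inhibitors. The plot of regions by role shows that the make-up of these groups was not alike. Collagens had as many short as long regions, whereas 9 of the 10 protease regions were long.

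**Figure D1:**
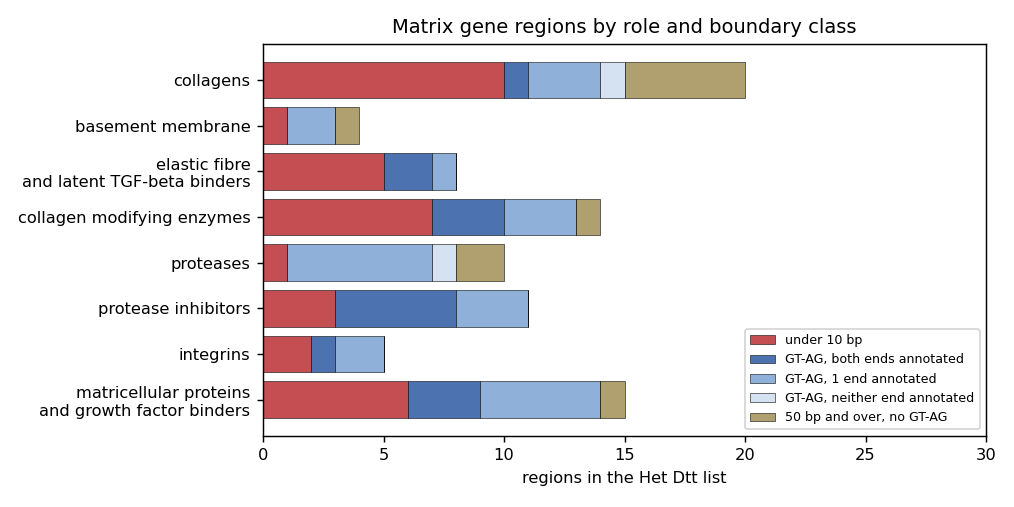
Number of regions in the Het Dtt list for each role (horizontal axis, regions), divided into short regions, GT-AG regions by how many of their ends are annotated splice sites, and long regions without GT-AG. Collagens have 10 regions under 10 bp and 5 long regions without GT-AG, and the protease inhibitors have 5 regions with both ends annotated.

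Most members had few supporting reads. In the Dtt list 63 of 87 regions had 2 reads, the minimum for listing, and a count of 2 has an exact 95% Poisson interval of 0.242 to 7.22 reads. With 3 or more reads there were 24 members (27.6%), where the whole list has 23.6%. With 5 or more reads there were 7 members (8.05%, 95% Wilson interval 3.95% to 15.7%), where the whole list has 3.51%. The authors propose that candidates with fewer than 5 reads are likely false positives, which covers all but these 7 members. The intervals hold counting error alone, because no molecular identifiers were used and several reads may come from 1 molecule.

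The best supported members were *Col8a1*, a short-chain collagen, with 15 reads (exact Poisson interval 8.40 to 24.7), and *Igfbp4*, a binder of insulin-like growth factors, with 10, both in regions of 2 bp. They were followed by *Igfbp2* with 7 reads and 23611 bp, *Mmp2* with 6 reads and 461 bp, and 3 regions with 5 reads, in *Adamts6* with 704 bp, *Igfbp2* with 23599 bp and *Serpinb6a* with 3922 bp. In the whole list 8 regions had more reads than *Col8a1*. The 10 reads of *Igfbp4* need not support 1 gap, as its boundaries lay farther apart than any single gap explains. None of the 6 pairs of neighbours in this order differed beyond counting error. Sorting on the same counts makes neighbours alike, so these tests say little about the order as a whole. The widest step, 15 against 10 reads, gave p = 0.424 (exact two-sided binomial test, adjusted p = 1 over the 6 pairs). The first and the last, 15 reads in *Col8a1* and 5 in *Serpinb6a*, differed 3.0-fold with p = 0.0414 by the same exact test, not adjusted for their choice as the ends of the order.

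**Figure D2:**
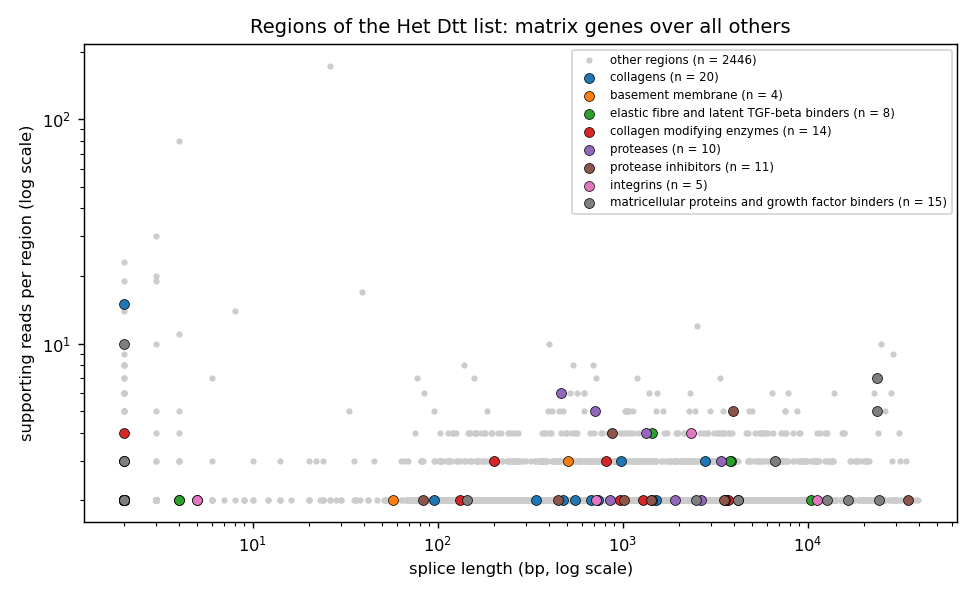
Supporting reads per region (vertical axis, log scale) against splice length in bp (horizontal axis, log scale) in the Het Dtt list, with the matrix gene regions coloured by role over all other regions in grey. The members with the most reads sit at 2 bp, with 15 and 10 reads, and the long members have at most 7 reads.

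Reads summed per gene gave another order. *Igfbp2* had 21 reads in 6 regions, *Col8a1* 18 in 2, *Col1a1* 13 in 6, *Mmp2* 12 in 3, and *Igfbp4* and *Lox* 10 each, in 1 and 4 regions. Several regions in 1 gene were common among members: 20 of 45 genes (44.4%) had at least 2 Dtt regions and 13 (28.9%) at least 3, where 18.4% and 4.72% of the 1990 genes of the whole list did. The mean was 1.93 regions per member gene and 1.27 per gene of the list. The lists give no expression level, and transcript length was not examined.

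Short regions made up 40.2% of the Dtt members (35 of 87, 95% Wilson interval 30.5% to 50.7%), where the whole list has 17.4% (442 of 2533). With 3 or more reads the shares were 25.0% of members (6 of 24) and 16.2% of the whole list (97 of 598). The median splice length was 461 bp for members and 902 bp for the whole list, but 1437 bp and 1376 bp among regions of 10 bp and over, and 2127.5 bp and 1511 bp among GT-AG regions. Among long regions, 80.8% of the members carried GT and AG at their ends when read along the gene (42 of 52, 68.1% to 89.2%), where the whole list has 91.2%. Of the 42 GT-AG members, 15 had both ends at annotated splice sites (35.7%), 25 had 1 end there and 2 had neither, and in the whole list 39.1% had both. These shares describe lists of regions from 1 library, and no test of the difference was made.

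**Figure D3:**
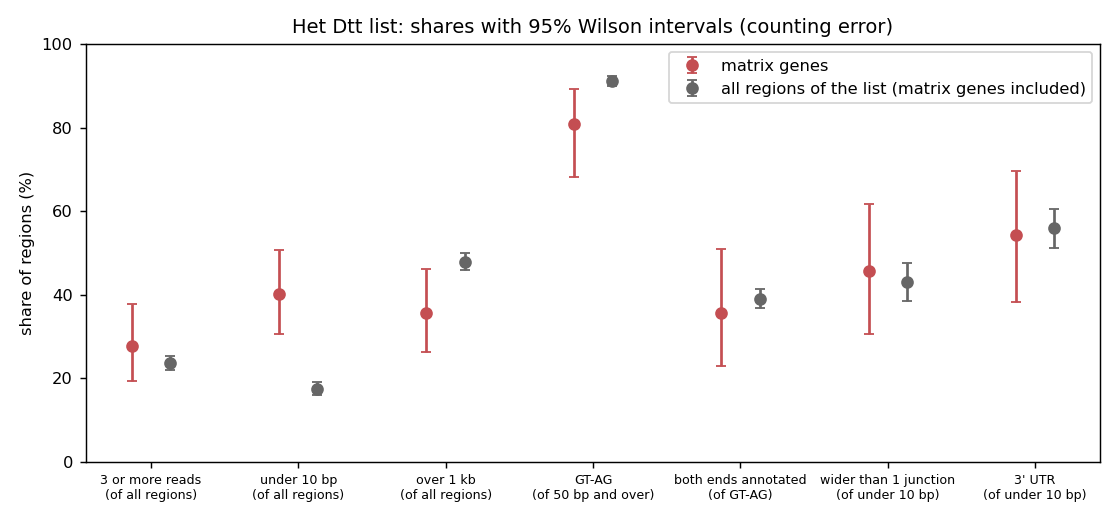
Share of regions in percent (vertical axis) with a given property among the matrix gene regions (red) and all regions of the Het Dtt list, members included (grey), where bars are 95% Wilson intervals. The share under 10 bp is 40.2% for matrix genes and 17.4% for the list, while the shares for both ends annotated, width and 3′ UTR have overlapping intervals.

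Among the matricellular proteins and growth factor binders, *Igfbp2* (ENSMUSG00000039323.11, plus strand of chromosome 1) had the largest set of long junctions. The 7 reads of its 23611 bp region joined an annotated donor to an annotated acceptor and match an intron of the GENCODE vM1 transcript Igfbp2-002. The region with 5 reads used the same acceptor with a donor 12 bases farther downstream. Another region reached this acceptor from a donor 7152 bases downstream of the nearest annotated donor, inside the intron, with a splice length of 16459 bp and 2 reads. The longest, of 24125 bp and 2 reads, started at the annotated donor of the coding transcript Igfbp2-201 and ended 4 bases inside the next exon, so that it removed 4 coding bases more than the annotated intron. Taken from the junction sequences above, the acceptor stretch holds both AGs, 4 bases apart. The 2 remaining *Igfbp2* regions were of 143 bp without GT-AG, 2 reads, and of 2 bp in a coding exon, 3 reads.

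*Tnc* encodes tenascin-C, a large matricellular glycoprotein known for splice variants that differ in their fibronectin type III repeats. In Tnc-002, exons 11 to 15 are each 273 bases long. The region of 6613 bp, with 3 reads, joined exon 11 to exon 13 and left out the 273 bases of exon 12. The region of 12617 bp, with 2 reads, joined exon 12 to exon 15 and left out 546 bases in exons 13 and 14. The region of 4206 bp, with 2 reads, shared its donor with the first of these and ended 107 bases inside exon 12. *Postn*, which encodes periostin, had a region of 2498 bp and 2 reads from an annotated donor to an acceptor 307 bases upstream of the nearest annotated one. *Ctgf* and *Cyr61*, which encode matricellular proteins of the CCN family, had only regions of 2 bp, 3 and 1 in the Dtt list, with 2 reads each.

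**Figure D4:**
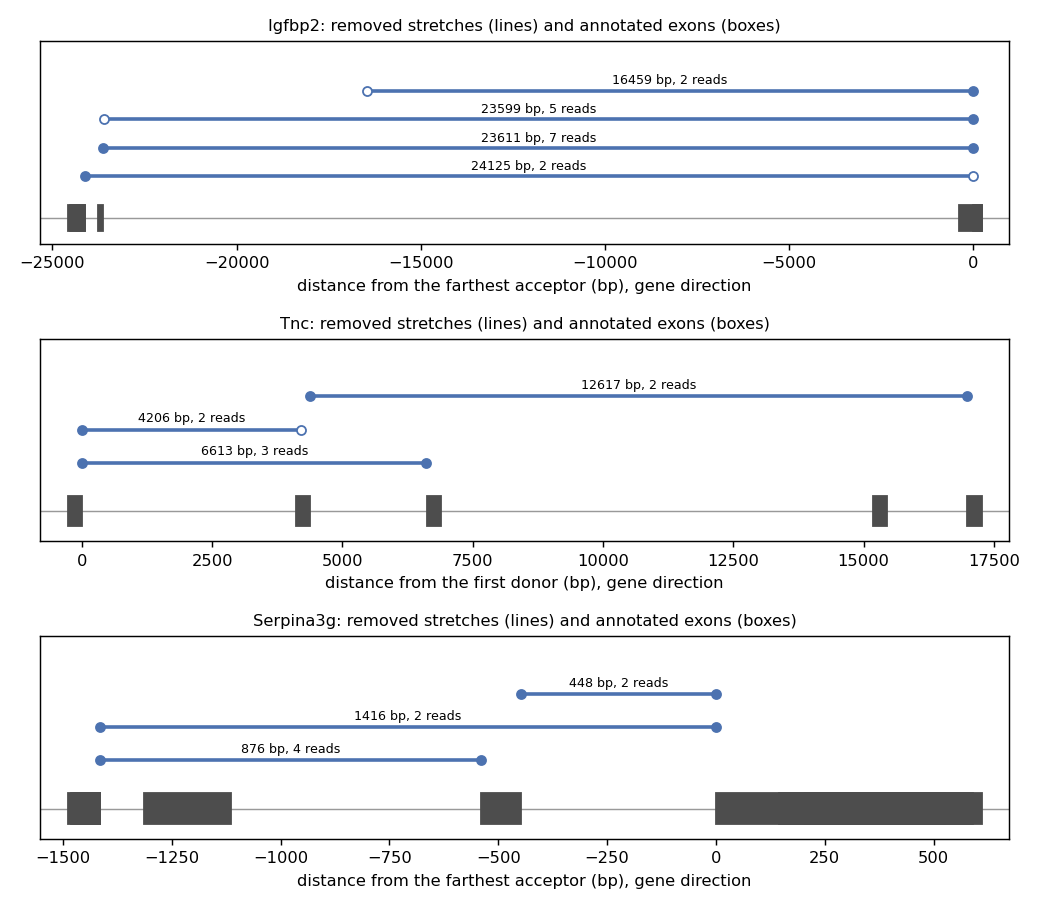
Removed stretches of the GT-AG regions of *Igfbp2*, *Tnc* and *Serpina3g* in the Het Dtt list (blue lines, each with its splice length and reads) above the annotated exons (boxes), with the distance in bp in the direction of the gene on the horizontal axis. Filled ends are annotated splice sites and open ends are not, and 3 of the 4 *Igfbp2* lines end at 1 shared acceptor.

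In the collagens, which form the fibres and sheets of the matrix, 5 of 10 long regions had GT-AG boundaries, where 37 of the other 42 long members did. The only collagen region with both ends at annotated sites was that of *Col1a1*, a chain of type I collagen, with 676 bp and 2 reads. It left out exon 32 of 51 in Col1a1-001, which has 108 bases, or 12 Gly-X-Y triplets. Of the 2 other long *Col1a1* regions, that of 338 bp, 2 reads, started 72 bases before an annotated donor and ended at an annotated acceptor, and it removed 126 exon bases. The other, of 978 bp and 3 reads, removed 322 exon bases, and neither had GT-AG. A region of *Col4a2*, a chain of the basement membrane collagen IV, also lay between coding exons without GT-AG, with 552 bp and 2 reads, and removed 63 exon bases. The 126 and 63 bases are multiples of the 9 bases of a Gly-X-Y triplet, and the 322 are not.

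Other collagen regions used 1 annotated end. *Col6a2*, a chain of collagen VI, had a region of 2763 bp and 3 reads that ended at an annotated acceptor, from a donor in the 3′ UTR of another transcript, 3754 bases downstream of the nearest annotated donor. *Col8a1* had one of 3857 bp and 3 reads that ended at the annotated acceptor of an exon in the 5′ UTR, from a donor 4188 bases upstream of the nearest annotated donor. *Col5a2*, a chain of the fibril-forming collagen V, had one of 95 bp and 2 reads. In *Col4a1* a GT-AG region of 735 bp, 2 reads, lay wholly in the 3′ UTR, with neither end annotated.

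Among the basement membrane genes, the laminin chain gene *Lama5* had a region of 57 bp and 2 reads, whose acceptor lay 26 bases upstream of the annotated one. The *Lamc1* region, 4210 bp and 2 reads, had no GT-AG and removed 301 coding bases. The nidogen gene *Nid1* had a region of 4 bp in its 3′ UTR.

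The latent TGF-beta binding proteins hold TGF-beta in the matrix, and their genes had long regions in both lists. In the Dtt list the *Ltbp3* region of 3790 bp, 3 reads, left out exons 18 to 20 of 33 in Ltbp3-201, together 375 bases. The *Ltbp1* region of 10420 bp, 2 reads, left out exon 26 of 34 in Ltbp1-001, with 144 bases. In the Tg list the *Ltbp1* region of 2520 bp, 2 reads, matched an annotated intron of Ltbp1-007 that leaves out 159 bases of Ltbp1-001. The fibulin gene *Fbln2* had a region of 1438 bp with 4 reads, from an annotated donor to the AG 4 bases past the annotated acceptor, which removed 4 coding bases more than the annotated intron.

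Among the enzymes that modify collagen, 3 long regions had both ends annotated, and all match annotated introns. That of *P4ha3*, a prolyl hydroxylase subunit, had 3676 bp and 2 reads and left out exon 10 of 13 in P4ha3-001, with 63 bases. That of *P4ha2* had 807 bp and 3 reads, and that of *Loxl3*, a lysyl oxidase-like enzyme, 1290 bp and 2 reads. *Loxl2* had 2 GT-AG regions from annotated donors, of 3667 bp and 962 bp with 2 reads each. *Lox*, the lysyl oxidase gene itself, had no long region and 4 regions of 2 bp in its 3′ UTR, with 4, 2, 2 and 2 reads. *Plod2*, a lysyl hydroxylase gene, had a region of 2 bp in a coding exon, where only 1 placement gives the joined sequence.

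In the proteases, 0 of the 7 GT-AG regions had both ends annotated and 6 had 1. *Mmp2* encodes gelatinase A. Its region with 6 reads was 461 bp long and lay wholly in the 3′ UTR exon, 2478 bases downstream of the nearest annotated donor, with neither end annotated. Its region with 4 reads, of 1339 bp, joined an annotated donor to an acceptor 1387 bases upstream of the annotated one, inside the intron. *Adamts6* had 5 reads for an acceptor 5 bases upstream of the annotated one, and 2 reads for a donor 13 bases downstream of an annotated donor, with 1922 bp. *Adam17*, the sheddase of TNF, had 2 reads for an acceptor 5 bases upstream. *Mmp17* had 3 reads for an acceptor 137 bases inside a coding exon. *Adam9* had a region of 855 bp and 2 reads whose donor lay 56 bases before the end of a coding exon. A second *Adam9* region, of 3560 bp and 2 reads, joined annotated sites and left out the 133 bases of exon 19 of 23 in Adam9-201, and its donor is an annotated GC in place of GT.

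All 8 long regions of the protease inhibitor group had GT-AG boundaries, and 5 of them joined annotated sites. The chaperone gene *Serpinh1*, placed in this group by its symbol, holds 3 of the 8. The *Serpina3g* regions lay in the 5′ UTR and covered both forms of 1 exon. With the exon kept, the junction before it had 4 reads (876 bp) and the junction after it 2 reads (448 bp), and the junction that leaves out its 92 bases had 2 reads (1416 bp). *Serpina3g* belongs to a cluster of near-identical genes, so reads may be shared with its copies. *Serpinb6a* had 5 reads for an annotated intron of 3922 bp. *Serpinh1*, the collagen chaperone gene, had regions of 1014, 3501 and 83 bp with 2 reads each, of which the first joined annotated sites in the 5′ UTR that no single transcript holds together. *Timp2*, an inhibitor of metalloproteases, had the longest member region, 34755 bp with 2 reads, whose donor lay 4 bases before the annotated end of the exon.

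The integrin genes had 3 long regions. *Itgb5* had 4 reads for a region of 2333 bp whose acceptor lay 47 bases inside a coding exon. *Itga5*, the alpha chain of the fibronectin receptor, had 2 reads for a region of 712 bp that left out exon 12 of 30 in Itga5-201, with 209 bases, which is not a multiple of 3. *Itga1* had 2 reads for a region of 11166 bp from an annotated donor into an intron, 40901 bases upstream of the nearest annotated acceptor.

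Whole coding exons were left out by 7 GT-AG members of the Dtt list, in 6 genes, and the bases left out were a multiple of 3 in 6 of them, *Itga5* being the other. In the whole list this was so for 137 of 386 regions of this kind (35.5%). In the transcripts of the 6 genes, 126 of 174 internal coding exons (72.4%) have a length that is a multiple of 3, from 36.4% in P4ha3-001 to 93.9% in Col1a1-001, and in all genes of the annotation 41.0% of such exons do. Each of the 7 regions had 2 or 3 reads, and no test was made. The *Adam9* skip of 133 bases, not a multiple of 3, was not counted because its donor is GC. The exon shares are for single exons, while the *Ltbp3* region and 1 *Tnc* region left out several.

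Ends a few bases from an annotated site were seen in 5 of the 25 GT-AG members with 1 annotated end (20.0%, 95% Wilson interval 8.86% to 39.1%), where 13.7% of the 1097 such regions in the whole list lay within 5 bases. They are the *Igfbp2*, *Fbln2*, *Adamts6*, *Adam17* and *Timp2* ends printed above. The shifts were of 4 bases in *Igfbp2*, *Fbln2* and *Timp2* and of 5 in *Adamts6* and *Adam17*, none a multiple of 3. In the Tg list the *Igfbp4* region of 811 bp had a donor 11 bases downstream of the annotated one. The authors left out regions near junctions of the UCSC set, and whether that set held these introns was not examined.

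Of the 35 short members, 31 were of 2 bp and 4 of 4 or 5 bp. They lay in the 3′ UTR in 19 cases, in coding exons in 13 and in the 5′ UTR in 3, and the share in the 3′ UTR was 54.3%, where the whole list has 55.9%. The listed boundaries of 16 (45.7%) lay farther apart than 1 junction allows, by 1 to 49 bases and a median of 20.5, and in the whole list 43.0% of the short regions were of this kind. The authors joined reads of equal splice length at nearby boundaries, so the reads of such a region need not support the same gap. Of the long regions 0 of 52 members were wider, where 8 of 2054 in the whole list were. A repeat lets a gap slide without changing the joined sequence, and 10 of the 35 could slide over 4 or more bases (28.6%), where the whole list has 41.2%.

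The best supported short members differed in these respects. The *Col8a1* region lay in a run of TG of 43 bases in the 3′ UTR and could slide over 41 bases, which is all the room that its boundaries left. The *Igfbp4* region, also in a run of TG, could slide over 10 bases, but its boundaries were 31 bases wider than that. In *Lox* 3 of the 4 regions were wider than 1 junction allows, by 16, 19 and 33 bases, with slides of 2 or 3 bases. The *Ltbp1* regions of 2 bp and 4 bp had the same boundaries and lay in 1 run of T in the 5′ UTR. *Cyr61* had 3 reads in the Tg list in a run of C of 12 bases in its 3′ UTR, and in the Dtt list a region 49 bases wider than 1 junction allows, in a coding exon.

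**Figure D5:**
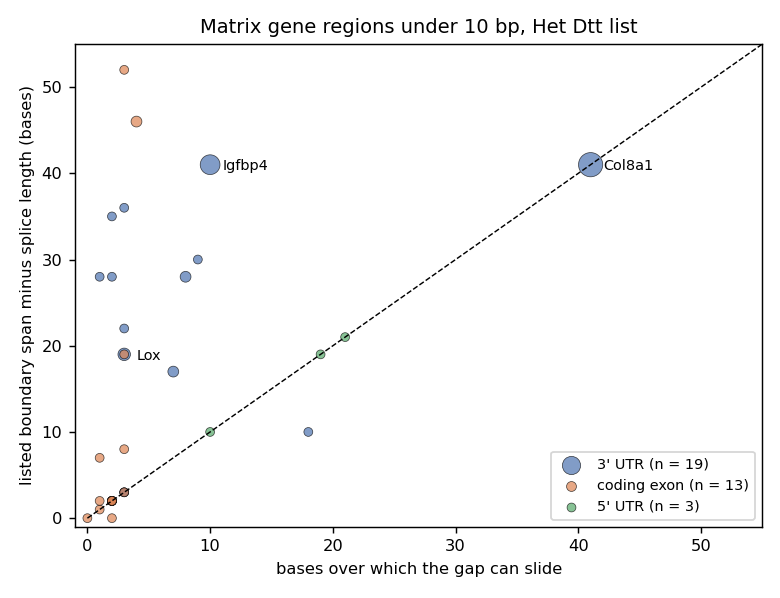
Listed boundary span minus splice length in bases (vertical axis) against how far the gap can slide in bases (horizontal axis) for the 35 matrix gene regions under 10 bp in the Het Dtt list, with point area in proportion to reads and colour by position in the gene. Points above the dashed line of equality are wider than 1 junction allows, and *Col8a1*, with 15 reads, lies on the line at 41 bases.

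The 3 members of the Tg list, *Cyr61* with 3 reads and *Igfbp4* and *Ltbp1* with 2 each, are 5.45% of its regions (95% Wilson interval 1.87% to 14.8%), and the 87 Dtt members are 3.43% of theirs (2.79% to 4.22%). All 3 genes also had regions in the Dtt list, but 0 of the Tg regions overlapped one of them. A list of 39 other matrix genes gave 58 Dtt regions in 13 genes, of which 39 were under 10 bp (67.2%) and 12 had GT-AG boundaries. *Thbs1*, *Fn1* and *Bgn*, with 19, 14 and 9 regions, made up most of these. *Lepre1* and *Leprel2*, which encode collagen prolyl hydroxylases, and *Crtap* and *Ppib*, which encode partners of Lepre1, had 1 GT-AG region each, with 2, 2, 2 and 3 reads in that order. The other 26 genes of that list had no Dtt region.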

How the data were processed

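RNA-Seq data of Het MEFs treated with Tg or Dtt were used, 1 library each. The authors mapped reads to mm9 and UCSC known junctions with Bowtie, split the unmapped reads and mapped the parts without mismatches. They joined split reads of equal splice length into regions where the boundaries lay within a set distance. The boundaries of a region are the lowest and the highest among its reads. They dropped regions close to known junctions and those matched in KO. The deposited counts are raw supporting reads per region, with a minimum of 2, and splice lengths are in bp. No number stands in the KO columns.

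Each region was placed on mm9 and GENCODE vM1 at every position within its boundaries or reached by sliding over equal bases (searched to 60 bases), and the placement with GT-AG ends, then with most annotated sites, was kept. Member genes overlapping another gene (*Tnc*, *Timp2*, *Col4a1*, *Ctgf*, *Loxl2*) cannot be told apart from it if the libraries are unstranded, which was not given in the sources used here. Exons were numbered in the named transcript. Splice sites of all transcripts on the strand of the gene counted as annotated. As a check of the code, 200 annotated introns were given boundaries by the same sliding rule. All 200 were found and 0 were called wider than 1 junction, which this construction fixes in advance. Of 200 random gaps 0 were called GT-AG. The check on introns does not cover boundaries joined from several reads. Neighbours in the order by reads were compared by exact two-sided binomial tests, with Benjamini-Hochberg adjustment at a threshold of 0.05, and intervals are 95% Wilson or exact Poisson intervals. Regions are not replicates, so no test of members against other regions was made.

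The members and gene lists were chosen with earlier results of these data known. Named were all Tg members, Dtt members with 4 or more reads, genes with 3 or more Dtt regions or in both lists, GT-AG members with both ends annotated, and the leading region of each role, except for results that are not reported here. The remaining named regions were chosen after their values were seen. Python 3.11.15, scipy 1.17.1, numpy 2.4.6, pandas 2.3.3, pysam 0.24.0 and matplotlib 3.10.9 were used.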

Additional observations from a re-analysis of the deposited data

How the results depend on the processing

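The number of Dtt members, 87, was 24 with at least 3 reads, 7 with at least 5 reads, 52 with a splice length of at least 10 bp and 45 with 1 region per gene. The 3 Tg members became 1 with at least 3 reads and 0 with at least 5. The share of Dtt members under 10 bp, 40.2%, was 25.0% with at least 3 reads (6 of 24), and the median splice length, 461 bp, was 1437 bp among regions of at least 10 bp. The other alternatives stayed within 1.5 times the count, within the 95% interval of the share or on the same side of the threshold. They included leaving out the *Serpin* and *Igfbp* genes, other limits for short regions, GT-AG within the listed boundaries or on either strand, annotated sites within 5 bp or of the named gene alone, a limit on excess width, 1 region per gene for the share under 10 bp (33.3%) and at least 3 reads for the GT-AG share (88.9%). When reads were summed per gene, *Igfbp2* came before *Col8a1*, with a ratio of 1.17 (exact two-sided binomial test, p = 0.749). Most members rest on 2 reads, which limits every statement on a single region. No paired analysis was possible because only 1 library per group exists here, so a replicate could not be left out either.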

Other observations

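Of the 10 long Dtt members without GT-AG on the strand of the gene, 2 had it on the other strand. The *Loxl2* region of 201 bp, 3 reads, lies in an intron of *Loxl2*, and on the minus strand its donor is an annotated splice site of *Gm16867*, a gene that overlaps *Loxl2*, while its acceptor is not annotated. The *Mmp2* region of 1436 bp, 2 reads, has no annotated site on either end of the minus strand.

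A pair of collagen IV regions lie almost on annotated introns without matching them. The *Col4a1* region of 474 bp is 2 bases longer than the nearest annotated intron, of 472 bp, and the *Col4a2* region of 1516 bp is 1 base longer than one of 1515 bp. Both have 2 reads, and neither has GT-AG at any placement.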
